A study of Mus musculus with 6 samples.

Results

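Among the molecules that act directly at the T-cell receptor, treatment of mouse CD8+ T cells with the LSD1 inhibitor GSK2879552 (GSK) gave small RNA differences in both directions. The set holds 9 genes, listed by symbol as Lck, Fyn, Zap70, Lat, Lcp2, Plcg1, Vav1, Ptpn22 and Themis, out of 16281 genes in the count table. All 9 had a row in the table, and all 9 were among the 11698 genes that passed the filter on low counts. LSD1 is a histone demethylase, and GSK blocks its enzymatic activity. The cells came from spleens of OT1 mice, C57BL/6 animals with the genotype Tg(TcraTcrb)1100Mjb, whose transgene supplies a rearranged receptor for an ovalbumin peptide. Both groups were activated through plate-bound anti-CD3 and soluble anti-CD28 with IL-2 for 48 h, and were then kept in IL-2 for another 3 days. The GSK group (n = 3) received 0.5 μM of the inhibitor over this whole time and the vehicle group (Veh, n = 3) did not. The receptor was thus triggered by antibody in both groups, and the RNA was taken after the antibody phase. The study names separate mice, but does not state whether same-numbered Veh and GSK cultures came from the same animal.

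A T cell reads antigen through its receptor and the CD3 chains, which have no enzymatic activity of their own. The Src-family kinases Lck and Fyn phosphorylate the CD3 chains, and Zap70 docks on the phosphorylated chains and is itself activated by Lck. Zap70 then phosphorylates the adaptors Lat and Lcp2 (SLP-76), which together hold the phospholipase Plcg1 and the exchange factor Vav1. Plcg1 makes the second messengers that open calcium stores and activate Ras and NF-κB, and Vav1 acts on small GTPases and the cytoskeleton. Ptpn22 is a phosphatase that removes activating phosphates from Lck and Zap70, and Themis is an adaptor with a central role in thymocyte selection.

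RNA was measured by sequencing of polyadenylated RNA, and the deposited values are whole counts of reads per gene, which summed to between 18288447 and 19846720 per sample. Levels are given as CPM, the count of a gene relative to its sample's TMM-scaled total. Fold changes compare GSK with Veh and were tested by quasi-likelihood in edgeR, p-values being adjusted over all 11698 genes after Benjamini and Hochberg. SE stands for the standard error of a log2 fold change. A gene was counted as higher or lower at an adjusted p under 0.05, and as called at a fold change over 1.5 in addition. GSK replicates 2 and 3 differed from each other more than any other pair within a group. The chi-square statistic divided by its degrees of freedom was 9.46 for this pair and between 4.09 and 4.85 for the others. The cells carried the RNA of CD8+ T cells. Cd3d, Cd3e, Cd3g, Cd247, Cd8a and Cd8b1 summed to between 2189 and 2298 CPM in Veh and between 2014 and 2151 CPM in GSK. Cd4 stayed between 0.472 and 1.79 CPM. Zbtb7b, the other marker of CD4 T cells read, was between 33.7 and 49.4 CPM, and its groups overlapped. Of 4 markers of natural killer cells, Ncr1 was at 0 in 5 of the 6 samples, and Klra8 and Klra4 had at most 1 read. The other, Klrb1c, had between 29 and 70 reads per sample, and its groups overlapped. In bulk samples of this kind, fewer cells of a type cannot be told apart from less RNA per cell.

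To show where transcription of these genes starts, promoter windows of 4 RefSeq starts are given, for the kinase with the highest level (Lck, which has separate upstream and downstream promoters), an adaptor gene that was higher (Lat) and the gene that fell the most (Themis). Each window runs from 250 bases before to 50 bases after an annotated start and is written 5′ to 3′ on the gene's strand, in GRCm38.p6 coordinates. Capitals mark matches on either strand to AGGAAG (core of ETS factors), TGTGGT (core of RUNX factors) and AAATCA (core of GFI1, a repressor that recruits LSD1).
Lck upstream start, chr4:129573592-129573891, minus strand: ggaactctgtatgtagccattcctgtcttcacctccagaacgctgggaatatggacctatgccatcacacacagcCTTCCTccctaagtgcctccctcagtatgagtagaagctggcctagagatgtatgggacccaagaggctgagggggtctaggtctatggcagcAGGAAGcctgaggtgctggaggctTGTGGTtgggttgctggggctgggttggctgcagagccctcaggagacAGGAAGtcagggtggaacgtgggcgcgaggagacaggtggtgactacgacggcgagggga
Lck downstream start, chr4:129558323-129558622, minus strand: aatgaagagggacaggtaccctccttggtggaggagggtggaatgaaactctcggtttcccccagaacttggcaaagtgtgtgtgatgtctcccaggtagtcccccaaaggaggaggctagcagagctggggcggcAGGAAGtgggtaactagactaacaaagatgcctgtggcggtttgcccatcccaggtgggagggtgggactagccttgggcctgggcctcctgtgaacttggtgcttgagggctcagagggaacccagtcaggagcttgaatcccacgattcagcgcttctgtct
Lat, chr7:126369519-126369818, minus strand: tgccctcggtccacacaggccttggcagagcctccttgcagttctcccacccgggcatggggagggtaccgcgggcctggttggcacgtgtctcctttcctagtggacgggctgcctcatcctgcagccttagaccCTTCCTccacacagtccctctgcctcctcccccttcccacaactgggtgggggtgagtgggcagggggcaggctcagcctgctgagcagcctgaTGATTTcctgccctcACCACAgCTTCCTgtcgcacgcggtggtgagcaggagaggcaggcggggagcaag
Themis, chr10:28668110-28668409, plus strand: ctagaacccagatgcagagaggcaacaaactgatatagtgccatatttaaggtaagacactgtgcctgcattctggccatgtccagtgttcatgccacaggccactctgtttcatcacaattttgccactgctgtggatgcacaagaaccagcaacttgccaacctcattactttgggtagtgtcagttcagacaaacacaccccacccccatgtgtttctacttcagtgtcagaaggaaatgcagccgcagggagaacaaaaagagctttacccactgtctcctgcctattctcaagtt

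The upstream Lck window held 3 ETS matches and 1 RUNX match and the downstream one 1 ETS match. The Lat window held 2 ETS matches, 1 RUNX match and 1 GFI1 match, and the Themis window had no match to these letters. Over the 14 windows of the 9 genes, 9 held the ETS letters, 4 the RUNX letters and 2 the GFI1 letters, where 35.4%, 16.8% and 14.0% of all 32851 RefSeq windows did. Some windows of a gene overlap, and the counts of a gene do not separate its starts.

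At an adjusted p under 0.05, 4 of the 9 genes were higher in GSK (Lck, Fyn, Lat and Vav1), where 16.6% of all genes tested were higher. Plcg1, Ptpn22 and Themis, 3 of the 9, were lower, where 15.5% of all genes tested were lower. Zap70 and Lcp2 did not pass. None of the differences reached 1.5-fold, so that edgeR called 0 members up, where 2.22% of all genes tested were called up, and 0 down, where 4.09% were called down. DESeq2 also called 0 in either direction, and 7 members had an unadjusted p under 0.05 in edgeR. In 8 of the 9 genes every GSK sample lay on one side of every Veh sample, which was so for 46.7% of all genes tested. The median log2 fold change was 0.049 over the members and -0.0039 over all genes, and the median of its absolute size was 0.23 against 0.16.

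The 9 genes are abundant, at the 89.6th to the 99.1st percentile of mean CPM among the genes tested. Among the 1113 tested genes with a mean CPM within the members' range, 27.2% were higher, 18.8% were lower and 60.3% had groups that did not overlap. In this range 0.359% were called up and 1.08% called down, and the median absolute log2 fold change was 0.12. The lowest count of any member in any sample was 3130, for Vav1. At the members' mean counts the error of counting alone is between 0.774% and 1.69%, and the coefficient of variation between replicates ran from 0.612% for Lck in Veh to 9.70% for Ptpn22 in GSK.

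**Figure D1:**
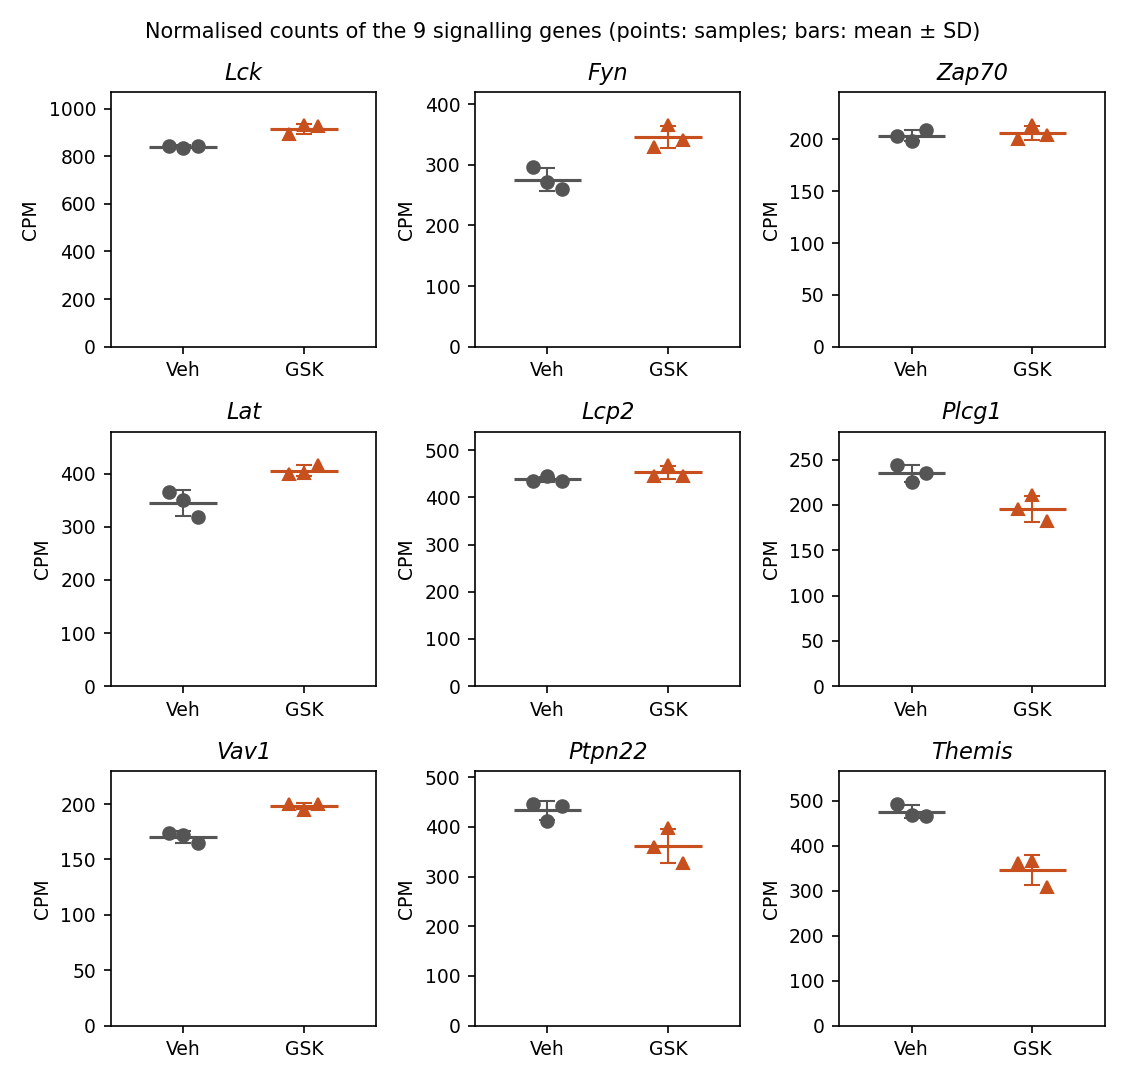
CPM (vertical axes, from 0) of the 9 genes in the 3 Veh samples (grey circles) and the 3 GSK samples (orange triangles), with the mean and SD of each group as bars. Lck, Fyn, Lat and Vav1 sat higher in every GSK sample, Plcg1, Ptpn22 and Themis lower, and Zap70 was the gene whose groups overlapped.

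The Src-family kinases were both higher. Lck (Entrez gene 16818, chromosome 4 of GRCm38 from 129548344 to 129573641), the kinase bound to the CD8 coreceptor, was at 844, 834 and 841 CPM in the Veh samples and at 892, 930 and 926 CPM in the GSK samples. The Veh samples were nearly level, and each GSK sample lay above them. The groups differed by a log2 fold change of 0.13 (SE 0.032, edgeR adjusted p = 0.0105), a rise of 9.05%. Fyn (Entrez gene 14360, chromosome 10 from 39369743 to 39565381), which shares substrates with Lck, was at 296, 271 and 260 CPM in Veh and at 329, 365 and 341 CPM in GSK. The lowest GSK sample lay above the highest Veh sample. With a log2 fold change of 0.33 (SE 0.054, edgeR adjusted p = 7.54e-04), it rose the most of the 9 genes, by 25.3%. The region of Lck overlaps a microRNA gene, Mir8119, and that of Fyn the predicted gene Gm16364, so reads shared with these are uncertain.

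The ratio of Lck to Fyn counts does not depend on how libraries are scaled. It was 2.86, 3.08 and 3.24 in the Veh samples and 2.71, 2.55 and 2.72 in the GSK samples. Every GSK ratio was below every Veh ratio, with means of 3.06 ± 0.191 (SD, n = 3) and 2.66 ± 0.0953 (SD, n = 3). The difference in log2 ratio was -0.20, and an exact two-sided permutation test gave a p of 0.1, the smallest that 3 samples against 3 allow.

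Zap70 (Entrez gene 22637, chromosome 1 from 36761798 to 36782821), the Syk-family kinase that docks on phosphorylated CD3 chains, was at 203, 198 and 209 CPM in Veh and at 200, 214 and 204 CPM in GSK. The samples of the groups were intermixed. Its log2 fold change of 0.017 had a 95% interval from -0.077 to 0.11 (edgeR adjusted p = 0.798), which is a change between -5.22% and 8.02%. The region of Zap70 overlaps a predicted gene, Gm18828.

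Of the adaptors, Lat passed the test and Lcp2 did not. Lat (Entrez gene 16797, chromosome 7 from 126363827 to 126369705), a membrane scaffold that carries the docking tyrosines, was at 366, 351 and 318 CPM in Veh and at 399, 402 and 417 CPM in GSK. Its Veh samples were more spread than its GSK samples, and all of the latter were higher. The groups differed by a log2 fold change of 0.23 (SE 0.050, edgeR adjusted p = 0.0034), a rise of 17.6%. Lcp2 (Entrez gene 16822, chromosome 11 from 34046928 to 34092281), which encodes the cytosolic adaptor SLP-76, was at 435, 445 and 435 CPM in Veh and at 446, 469 and 445 CPM in GSK. The highest Veh and the lowest GSK sample were nearly equal, and the difference did not pass (log2 fold change 0.049, 95% interval -0.032 to 0.13, edgeR adjusted p = 0.347). Whether Lat and Lcp2 differ in their response was not tested. The regions overlap Mir7058 and 4930469K13Rik, respectively.

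The 2 effectors held by these adaptors moved in opposite directions. Plcg1 (Entrez gene 18803, chromosome 2 from 160731310 to 160775760), the phospholipase that splits membrane inositol lipids, was at 244, 225 and 235 CPM in Veh and at 196, 210 and 182 CPM in GSK. Every GSK sample was below every Veh sample. Its RNA fell by 16.5% (log2 fold change -0.26, SE 0.055, edgeR adjusted p = 0.00321). Vav1 (Entrez gene 22324, chromosome 17 from 57279100 to 57329236), the exchange factor, was at 174, 172 and 164 CPM in Veh and at 200, 195 and 200 CPM in GSK. The replicates of each group were close to each other and the groups well apart. It rose by 16.4% (log2 fold change 0.22, SE 0.042, edgeR adjusted p = 0.00193). The Plcg1 region overlaps the gene Zhx3, and no annotated RefSeq gene overlaps Vav1.

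The modulators were both lower. Ptpn22 (Entrez gene 19260, chromosome 3 from 103856575 to 103912252), the phosphatase that acts on Lck and Zap70, was at 446, 411 and 443 CPM in Veh and at 358, 398 and 328 CPM in GSK. GSK replicate 2 came close to the lowest Veh sample. The groups differed by a log2 fold change of -0.26 (SE 0.064, edgeR adjusted p = 0.0110), and the RNA fell by 16.6%. Themis (Entrez gene 210757, chromosome 10 from 28668360 to 28883820) was at 492, 468 and 466 CPM in Veh and at 362, 367 and 308 CPM in GSK. The groups were far apart, and GSK replicate 3 was the lowest sample. Themis had the largest change of the 9 genes, a fall of 27.3% (log2 fold change -0.46, SE 0.061, edgeR adjusted p = 3.12e-04), and its 95% interval reached from -0.59 to -0.33. No RefSeq gene overlaps either region.

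All 3 genes that fell had their lowest value in GSK replicate 3 and their highest GSK value in replicate 2, the pair of libraries that differed the most. Without GSK replicate 3 the log2 fold changes were -0.21 for Plcg1, -0.20 for Ptpn22 and -0.39 for Themis, and without GSK replicate 2 they were -0.32, -0.34 and -0.51, with every adjusted p under 0.05.

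**Figure D2:**
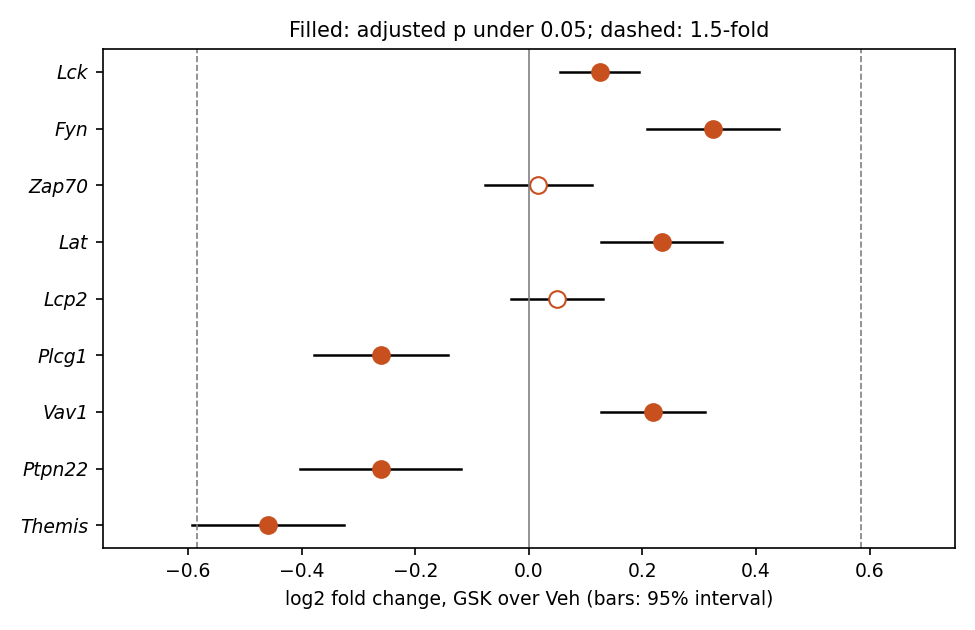
Log2 fold change of GSK over Veh (horizontal axis) for each of the 9 genes, with 95% intervals from edgeR's quasi-likelihood test as bars, filled circles for an adjusted p under 0.05, and dashed lines at 1.5-fold. The values run from -0.46 for Themis to 0.33 for Fyn, and the interval of Themis is the one that crosses a dashed line.

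Per kilobase of exon, the order of the genes in Veh was Lck, Lat, Lcp2, Zap70, Ptpn22, Fyn, Vav1, Themis and Plcg1. Lck stood far above the rest, at 287 ± 1.76 CPM per kilobase (SD, n = 3), followed by Lat at 125 ± 8.87 and Lcp2 at 98.3 ± 1.22 CPM per kilobase. Plcg1 was the lowest, at 29.9 ± 1.22 CPM per kilobase. Ptpn22 and Fyn, at 63.9 ± 2.83 and 63.1 ± 4.18 CPM per kilobase, were the neighbours in this order whose Veh samples overlapped. In GSK, Fyn was at 79.1 ± 4.17 and Ptpn22 at 53.3 ± 5.17 CPM per kilobase, so that Fyn moved from place 6 to place 4 and its samples lay above those of Zap70 and Ptpn22. In the GSK order, the samples of Vav1 and Ptpn22 overlapped, as did those of Themis and Plcg1. These levels use the exon length of GENCODE M21, which counts every annotated isoform, so the order between genes of close level depends on that length.

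**Figure D3:**
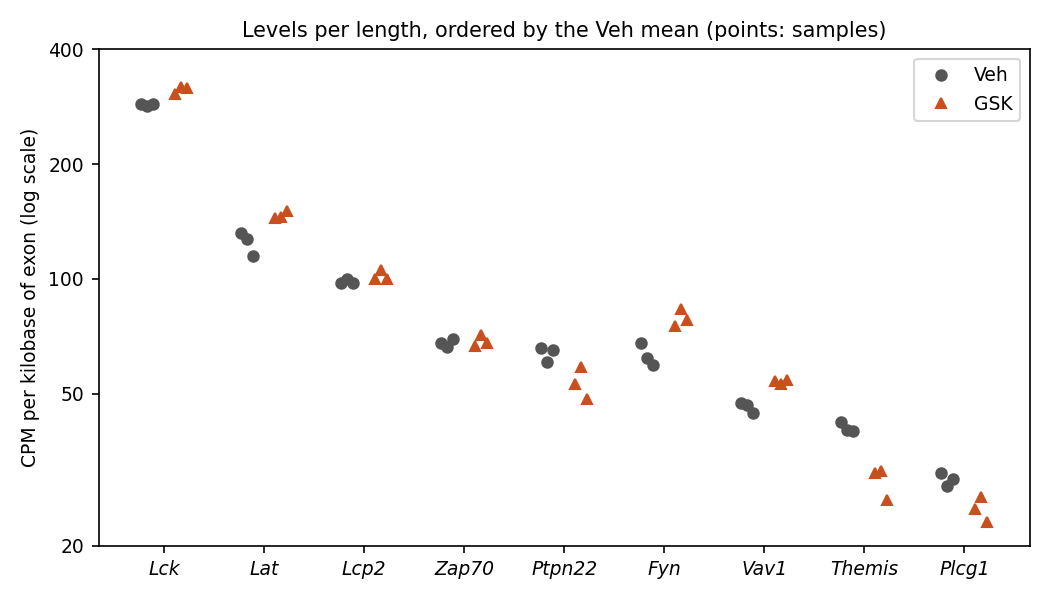
CPM per kilobase of exon (log scale) of the 9 genes in each Veh sample (grey circles) and GSK sample (orange triangles), ordered by the Veh mean. Lck lies above the other genes in every sample, and Fyn and Ptpn22 overlap in Veh and are apart in GSK.

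For Themis, the member with the smallest p, the genes most like it across the 6 samples were Izumo4, Pnrc1 and Adcy7, with root mean square differences in centred log2 CPM of 0.023, 0.029 and 0.033. Their log2 fold changes were -0.48, -0.42 and -0.45. These values share the 6 libraries and the grouping, and all 3 genes were lower in every GSK sample.

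The receptor chains upstream of these kinases were measured in the same samples. Cd3d, Cd3e and Cd3g were lower in GSK (log2 fold changes -0.16, -0.23 and -0.38, edgeR adjusted p = 0.0114, 0.00145 and 6.04e-05), while Cd247, Cd8a and Cd8b1 did not pass (0.11, 0.069 and -0.11). Trac, Trbc1 and Trbc2 had no row in the count table under these symbols.

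Beyond the 9 genes, a list of 59 other genes of the pathway was followed, of which 58 were tested. Of these, 6 were higher (10.3%) and 11 lower (19.0%), against the 16.6% and 15.5% of all genes, and the median log2 fold change was -0.012. Without Veh replicate 2, and likewise without Veh replicate 3, 3 were higher, and without GSK replicate 1, 7 were lower. The groups did not overlap in 28 of the 58 (48.3%), a share near the 46.7% of all genes tested. Means written as a change run from Veh to GSK.

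Among the 6 kinases of the list, 3 were higher (50%), Csk, Txk and Map4k1, where 16.6% of all genes tested were higher. Csk, the kinase that puts the inhibitory phosphate on Lck and Fyn, went from 301 ± 2.51 to 348 ± 5.99 CPM (SD, n = 3), with a log2 fold change of 0.21 (edgeR adjusted p = 0.00114). Txk, a Tec-family kinase, went from 76.2 ± 5.77 to 92.4 ± 10.1 CPM, a difference that did not pass without Veh replicate 2 or without Veh replicate 3 (adjusted p = 0.0754 and 0.0783, edgeR). Map4k1 (HPK1), which marks SLP-76 for degradation, had a log2 fold change of 0.14.

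Of the 14 adaptors tested, 1 was higher (7.14%) and 2 lower (14.3%), against the 16.6% and 15.5% of all genes tested. Sh2d2a (TSAd), an adaptor that binds Lck, passed in the upward direction, by 0.19 on the log2 scale (edgeR adjusted p = 0.00829), and Skap1, which links the receptor to integrins, was lower (-0.20, adjusted p = 0.00698). Without GSK replicate 1, the adjusted p of Skap1 was 0.0507. Gab2, a scaffold with low levels of 5.90 ± 1.39 and 3.57 ± 0.647 CPM in the respective groups, was called down (log2 fold change -0.72, edgeR adjusted p = 0.0179), but did not pass without Veh replicate 2 (adjusted p = 0.0935) or without GSK replicate 3 (0.0575). Grap2 (Gads) and Grb2, which couple Lat to SLP-76 and to Ras activation, did not pass, with log2 fold changes of 0.067 and 0.059.

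The group of negative regulators, which also held phosphatases with other roles such as Ptprc, had 21 tested genes. Of these, 4 were lower (19.0%), a share near the 15.5% of all genes tested, and 1 was higher (4.76%), against 16.6%. Dgka, the diacylglycerol kinase that removes a product of Plcg1, had the largest fall, from 504 ± 47.0 to 313 ± 51.5 CPM (SD, n = 3), with a log2 fold change of -0.69 (edgeR adjusted p = 0.0199). It did not pass without Veh replicate 1 (adjusted p = 0.0656) or without GSK replicate 1 (0.0558). Cd5, an inhibitory receptor, went from 85.2 ± 8.47 to 60.3 ± 5.56 CPM (log2 fold change -0.50, edgeR adjusted p = 0.00115). Cblb, a ubiquitin ligase that restrains activation, went from 230 ± 5.86 to 172 ± 16.6 CPM (-0.42, adjusted p = 3.92e-04), and Sla2 also fell (-0.25). Dok2, an adaptor that dampens signalling, was the gene that was higher, at 188, 189 and 191 CPM without and 238, 231 and 265 CPM with the inhibitor (0.37, edgeR adjusted p = 2.09e-04). Its groups were well apart. The phosphatases Ptprc (CD45) and Ptpn6 (SHP-1) did not pass (log2 fold changes 0.061 and -0.10). The regions of Dgka, Cblb and Dok2 overlap other annotated genes.

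In the group of downstream genes, which also holds Sos1, Sos2, Vav2 and Vav3, 5 of 17 tested genes were lower (29.4%) and 1 higher (5.88%). Of all genes tested, 15.5% were lower and 16.6% higher. Itpr2 and Itpr3, receptors for the inositol trisphosphate that Plcg1 makes, had log2 fold changes of -0.44 and -0.24, and the calcium sensor Stim1 and the kinase Itpkb of -0.20 and -0.16. Itpr1, another such receptor, did not pass (0.090). Nor did Orai1, Ppp3ca, Ppp3cb and Ppp3r1, with log2 fold changes of 0.072, 0.099, 0.011 and 0.11. Itpr2 went from 76.2 ± 4.45 to 56.2 ± 5.32 CPM (SD, n = 3, edgeR adjusted p = 6.46e-04). Malt1, the protease of the NF-κB branch, went from 246 ± 6.92 to 186 ± 13.5 CPM (log2 fold change -0.40, adjusted p = 1.65e-04), and Bcl10, of the same branch, did not pass (0.076). Of the genes that passed in these lists, Map4k1, Sla2, Itpr3, Stim1 and Itpkb were chosen for mention after their values were seen. The same holds for Grap2, Grb2, Ptprc, Ptpn6, Bcl10, Itpr1, Orai1, Ppp3ca, Ppp3cb, Ppp3r1, Vav2 and Vav3, which did not pass.

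**Figure D4:**
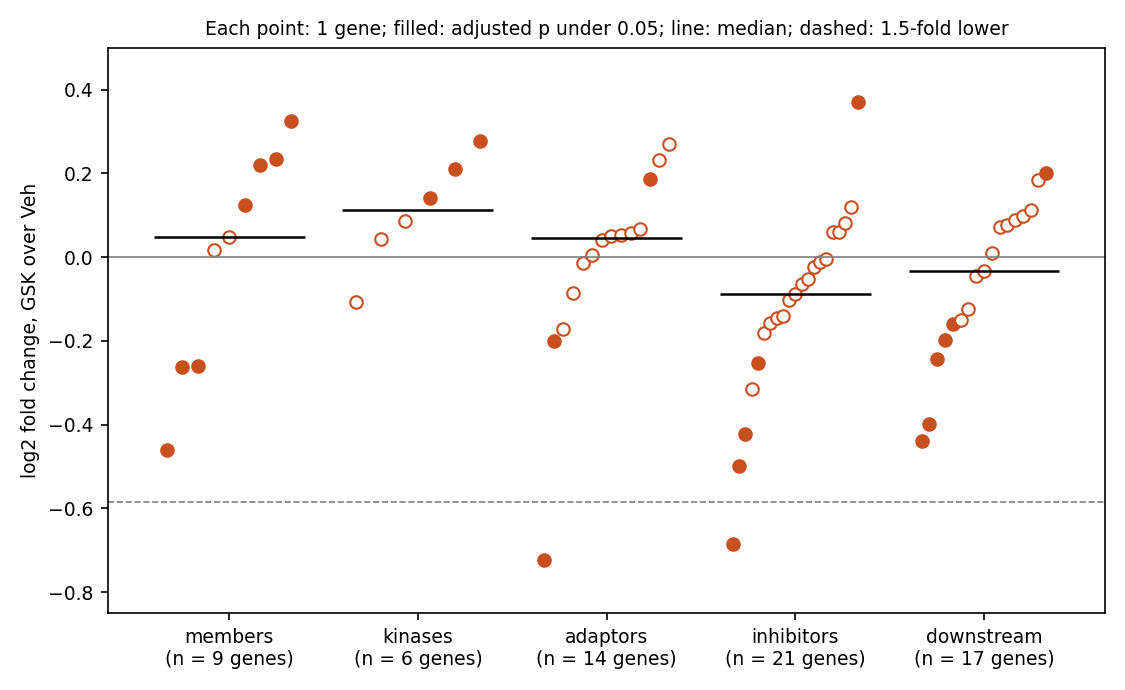
Log2 fold change of GSK over Veh (vertical axis) for the 9 members and for the other tested pathway genes by role, 1 point a gene, filled at an adjusted p under 0.05, with the group medians as lines and 1.5-fold lower as a dashed line. Gab2 and Dgka lie below the dashed line, and Dok2 is the highest point. The inhibitors group also holds phosphatases with other roles such as Ptprc, and the downstream group Sos1, Sos2, Vav2 and Vav3.

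Several members have family relatives that are best known from B cells and myeloid cells or are expressed widely. Of 12 such genes, 9 were tested, and per kilobase they lay below all members. Plcg2, the relative of Plcg1 and the most abundant of the 9, had a Veh level of 6.66 ± 0.460 CPM per kilobase (SD, n = 3), and Syk, the relative of Zap70, one of 0.280 ± 0.0297 CPM per kilobase. In GSK, 5 of the 9 were higher, where 16.6% of all genes tested were, and 3 of them were called up, where 2.22% were. By edgeR 0 were lower, with 1 lower at an unadjusted p under 0.05, and DESeq2 gave 4 higher and 0 lower. Without Veh replicate 1 or 2, or without any 1 of the GSK replicates, 3 were higher. Vav2 and Vav3, relatives of Vav1, were counted in the pathway list instead. Neither passed, with log2 fold changes of 0.19 and -0.15.

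Themis2, the relative of Themis that acts in B cells and myeloid cells, had the largest difference of the tested relatives. Its CPM values were 4.03, 5.20 and 3.84 in Veh and 11.0, 9.62 and 10.6 in GSK. The lowest GSK sample was well above the highest Veh sample, opposite in direction to Themis (log2 fold change 1.26, SE 0.15, edgeR adjusted p = 7.41e-05). Yes1, a Src-family kinase, went from 5.85 ± 0.716 to 9.60 ± 1.13 CPM (log2 fold change 0.71, edgeR adjusted p = 0.00263). Src itself went from 1.42 ± 0.244 to 2.63 ± 0.668 CPM (0.88, adjusted p = 0.0272), and did not pass without Veh replicate 1 or 2 or without GSK replicate 2 or 3 (adjusted p up to 0.103). Plcg2 went from 28.6 ± 1.98 to 36.1 ± 3.52 CPM (0.33, adjusted p = 0.00942), opposite in direction to Plcg1, and did not pass without GSK replicate 1 (adjusted p = 0.0572). Lyn was higher with an adjusted p of 0.0474 that did not pass in 10 of 12 alternatives (up to 0.141). Fgr, Syk and Lat2 did not pass, with log2 fold changes of -0.0019, 0.27 and 0.070. Reads that fit several Src-family genes equally well are uncertain in such counts.

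**Figure D5:**
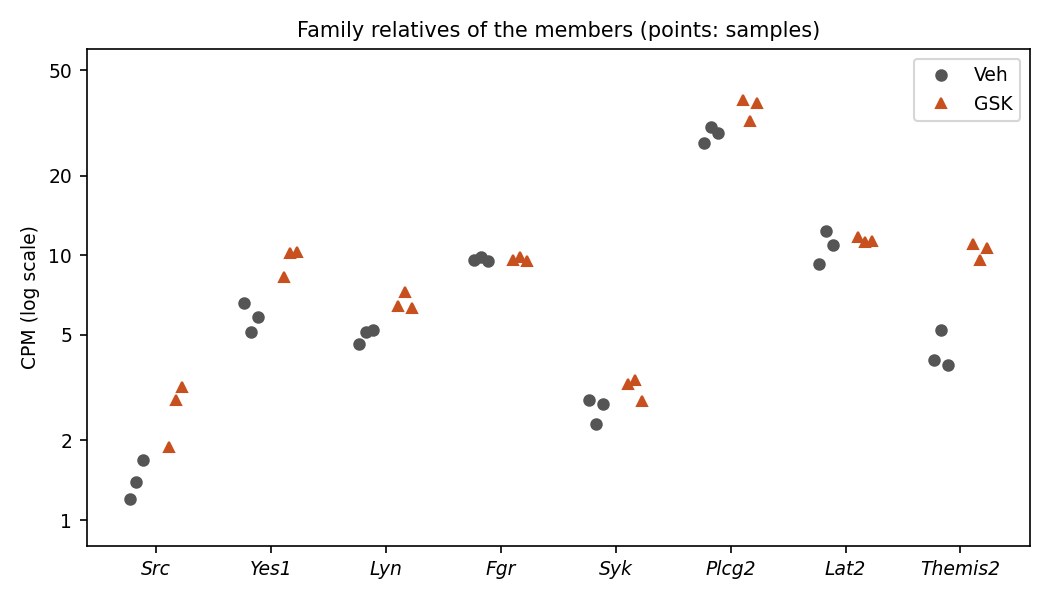
CPM (log scale) of 8 of the 9 tested relatives in each Veh sample (grey circles) and GSK sample (orange triangles). Themis2, Yes1, Src, Lyn and Plcg2 were higher in every GSK sample, and Plcg2 lies above the other relatives shown in all samples.

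Because these relatives are used by other cells, markers of such cells were read in the same libraries. The 7 B cell markers summed to between 6.20 and 8.21 CPM in Veh and between 8.03 and 9.31 CPM in GSK. Of the 2 tested, Cd22 was higher (log2 fold change 2.65) and Cd79b did not pass (-0.41). The 7 myeloid markers summed to between 840 and 894 CPM in Veh and between 847 and 1101 CPM in GSK, nearly all of it Ly6c2, which CD8+ T cells also express. Of the 4 tested, Fcgr3 was lower (log2 fold change -1.21). Adgre1, a macrophage marker too low to be tested, had 1, 1 and 0 reads in the Veh samples and 0 in every GSK sample. The 4 natural killer cell markers summed to between 1.58 and 2.39 CPM in Veh and between 2.38 and 3.78 CPM in GSK. Nearly all of this was Klrb1c, which did not pass (log2 fold change 0.54). The part of such cells in the relatives' difference was not tested.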

How the data were processed

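RNA of 3 GSK and 3 Veh cultures was measured. The authors trimmed reads with Trimmomatic, mapped them to GRCm38 with hisat2 (2.1.0) and deposited whole counts per gene from HTSeq-count (0.11.2), without normalization. The kit kept the strand, but the annotation release and strand setting are not given in the sources used here, so overlapping genes are uncertain. The total count per sample was between 18288447 and 19846720.

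From these counts, edgeR (4.0.16, R 4.3.3) was run with TMM scaling, filterByExpr and the robust quasi-likelihood test on all 6 samples, with Benjamini-Hochberg adjustment over all genes tested. Standard errors and 95% intervals came from the test statistic. The fit was tested on simulated data. The alternatives were DESeq2 (1.42.0), RLE and total-count scaling, no filter, a mean count of at least 50, the replicate number as a block, and each sample left out. The members and lists were chosen with earlier results of these data known.

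Named were all 9 members, all tested relatives, and of the pathway list every called gene and, per role, the 2 higher and 2 lower genes with the smallest p among those that passed. A few genes that this rule names are not reported here, though the counts of each list include them. Further genes, named after their values were seen, are given as such. Likeness to the member with the smallest p used centred log2 CPM (prior count 2). Cd3 and other marker genes served to check the cell type and the receptor chains. Exon lengths are from GENCODE M21, and positions, overlaps and promoter windows from RefSeq GRCm38.p6, matched by Entrez identifier or symbol. P-values judge the difference between the groups against the spread between these cultures.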

Additional observations from a re-analysis of the deposited data

How the results depend on the processing

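The counts of members that were higher (4) and lower (3) were the same under all 12 alternatives, and 0 members were called at 1.5-fold under any of them. Of the members, the adjusted p came closest to 0.05 for Ptpn22 (0.0457 without Veh replicate 1) and Lck (0.0431 without Veh replicate 2), and the sign of Zap70's estimate changed with total-count scaling and without Veh replicate 2 or GSK replicate 2. Among the pathway genes, leaving out 1 sample gave between 3 and 6 higher and between 7 and 15 lower, and among the relatives between 3 and 4 higher. With the replicate block, 4 members were higher and 3 lower, 5 pathway genes were higher and 11 lower, and 4 relatives were higher, so that Lyn (edgeR adjusted p = 0.0738) did not pass. Deviations of same-numbered samples correlated at -0.052, -0.081 and 0.16, which does not show a pairing, and whether they came from the same animals is not stated. The difference in the log2 ratio of Lck to Fyn stayed between -0.25 and -0.16 with 1 sample left out, and a sign-flip over the 3 pairs gave an exact p of 0.25, the smallest possible. The causes of these shifts were not tested. Src, Gab2 and Lyn had between 22 and 143 reads per sample, so that counting error limits their values.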

Other observations

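The summed level of the 9 members was nearly the same in both groups, at 3416 ± 73.0 and 3427 ± 107 CPM (SD, n = 3) for Veh and GSK, respectively. Of the listed genes, Shb, an adaptor, and the B cell genes Blk, Btk and Blnk were too low to be tested. Blnk, the B cell counterpart of SLP-76, had 1, 1 and 2 reads in the Veh samples and 5, 9 and 2 reads in the GSK samples, and Btk had at most 3 reads in any sample.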
